A study of Homo sapiens with 9 samples.

Results

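Amino acid catabolism and urea cycle enzymes were described here across HepG2 cells exposed to a PPARα agonist. The members were 40 genes listed by symbol and chosen for what their proteins do, with earlier results of these data known. Of these, 36 had a probe set under the listed symbol, out of 19775 genes measured, and each was read through its brightest probe set by mean signal. GLS2, GPT2, SDS and SDSL had no probe set under these symbols and are not analysed here. The 36 members were covered by 67 probe sets in all. Only 1 probe set covered each of 19 members, and several covered each of the other 17. The probe set used ended in _s_at or _x_at for 13 members, a suffix that marks probes shared between transcripts or genes.

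HepG2 is an established human hepatoma cell line. Total RNA was hybridised to Affymetrix expression arrays from 3 groups of 3 arrays each. The first group received the DMSO vehicle alone. The second received 100 nM of GW7647, which activates the nuclear receptor PPARα, for 6 h, and the third received 100 nM for 24 h. All groups were the same untransfected line in the same phenol red-free medium with serum and L-glutamine. Amino acid levels during the culture are not given. The labels give no duration for the vehicle arrays, so exposure to GW7647 and time in culture cannot be told apart in the comparisons with vehicle. They do not say whether replicates were separate cultures, and p-values therefore measure the spread between these arrays, which may be technical.

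Amino acid nitrogen is collected by transaminases onto glutamate and aspartate, released as ammonia by glutamate dehydrogenase, and either built into glutamine or turned into urea. In the urea cycle CPS1 fixes ammonia as carbamoyl phosphate, OTC, ASS1 and ASL carry it through citrulline and argininosuccinate to arginine, and arginase releases urea. The carbon skeletons pass through a separate chain of enzymes for each amino acid or group of amino acids, most of them concentrated in hepatocytes. In rodent liver PPARα is known to lower several of these enzymes, while CREB and ATF4 are known activators of others during fasting and amino acid shortage.

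The stretches just before the starts of 4 genes are shown as sequence only, and no result rests on them. HAL and AMDHD1 encode enzymes of histidine breakdown, are neighbours in the RefSeq gene order and both rose at 24 h. BCAT1 and ARG2 are called members that hold a searched motif. All are from RefSeq on GRCh38.p14, written 5′ to 3′ on the strand of the gene, and cover the 250 bases before the start. Capitals mark TGATGCAA in BCAT1, a match to the amino acid response element core TGATGNAA, and TGACGTCA in ARG2, the cAMP response element. HAL lies at chr12:95996345-95996594 on the minus strand, AMDHD1 at chr12:95943081-95943330 on the plus strand, BCAT1 at chr12:24949102-24949351 on the minus strand and ARG2 at chr14:67619670-67619919 on the plus strand.
HAL: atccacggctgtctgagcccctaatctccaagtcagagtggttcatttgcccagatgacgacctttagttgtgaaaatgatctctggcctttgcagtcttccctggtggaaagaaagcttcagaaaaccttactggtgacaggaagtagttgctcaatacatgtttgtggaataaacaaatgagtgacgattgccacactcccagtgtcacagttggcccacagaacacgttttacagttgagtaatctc
AMDHD1: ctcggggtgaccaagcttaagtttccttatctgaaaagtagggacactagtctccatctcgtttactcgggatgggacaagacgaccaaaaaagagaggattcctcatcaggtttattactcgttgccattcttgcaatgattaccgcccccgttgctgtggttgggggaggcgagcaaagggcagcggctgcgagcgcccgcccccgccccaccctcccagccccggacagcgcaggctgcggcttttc
BCAT1: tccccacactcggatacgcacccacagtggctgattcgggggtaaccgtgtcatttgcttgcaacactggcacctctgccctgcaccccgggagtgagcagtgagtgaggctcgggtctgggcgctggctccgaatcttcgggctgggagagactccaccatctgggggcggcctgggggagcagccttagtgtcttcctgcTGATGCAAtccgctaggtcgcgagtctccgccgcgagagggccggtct
ARG2: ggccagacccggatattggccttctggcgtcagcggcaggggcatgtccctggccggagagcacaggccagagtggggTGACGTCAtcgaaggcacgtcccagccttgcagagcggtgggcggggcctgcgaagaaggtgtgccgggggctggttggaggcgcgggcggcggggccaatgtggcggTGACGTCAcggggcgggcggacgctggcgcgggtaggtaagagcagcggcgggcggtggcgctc

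A window of 300 bases (250 before to 50 after a start) was available for 31 of the 36 members, and 12 of the 13 members called in any comparison had one. TGATGNAA stood on either strand in 3.62% of all 35116 windows and in 2 of the 43 windows of members, those of GOT1 and BCAT1. BCAT1 has 5 windows in the table, and the match lies in 1 of them. TGACGTCA, which reads the same on both strands, stood in 1.85% of all windows and in 1 of the 43 windows of members. That is the window of ARG2, which holds it 2 times. AGGTCA repeated in the same direction with 1 base between, the kind of site that PPARα binds with its partner RXR, stood on either strand in 0.0228% of all windows and in those of 0 members. Motifs and printed windows were chosen after values of these data had been seen. A match describes the letters of a window only.

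The members spanned nearly the whole range of signal. Their mean log2 signals ran from 3.67 for TDO2, the first enzyme of tryptophan breakdown, to 12.57 for GLUD1, glutamate dehydrogenase. The mean lay above 6.74, the median over all genes, for 26 members and at or below it for 10. Among the dimmest genes, below the 25th percentile, stood 4 members, namely TDO2, OTC at 3.75, UROC1 at 4.23 and AASS at 4.46, and for these a change of the transcript may not have been measurable. Probe brightness differs between probes, so these values rank no member against another by amount of RNA.

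At 6 h, 0 members were called higher and 1 was called lower than vehicle, with 35 passing in neither direction, against 3.54% of all genes called (1.64% higher and 1.91% lower). Called means an adjusted p under 0.05 in limma, with Benjamini-Hochberg adjustment over all 19775 genes. At an unadjusted p under 0.05, 2 members were higher and 7 lower. The share of all genes at that cut was not computed, so such counts, here and below, show no lean of the members. The count called lower was 2 without replicate 3 of the 6 h group or replicate 1 or 2 of the 24 h group, and the count higher was 1 without replicate 2 of vehicle. Fitted alone, 1206 of the 9887 genes above the median signal were called. The median change of the 36 members was -0.03 on the log2 scale, against 0.0039 over all genes. The split of all called genes at this time depended on scaling, with 324 higher and 377 lower as deposited, 255 and 416 with arrays centred on their medians, and 419 and 328 with quantile normalization.

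At 24 h, 5 members were higher than vehicle (HAL, BCAT1, ASS1, GSTZ1 and AMT), 3 were lower (ARG2, HGD and MAT1A) and 28 passed in neither direction, against 8.17% of all genes called (5.38% higher and 2.8% lower). Fitted alone, 2343 of the 9887 genes above the median signal were called, and 26 of the 36 members lie above it. The share over all genes may therefore be a low yardstick for the members, here and below. The fit above the median has its own variance estimate and adjustment, and it called more genes than the 1616 called among all 19775. In each comparison its counts are therefore not on the same footing as the members' counts. How many of the brighter genes were called in the main fit was not computed. The median change of the members was 0.04, and 0.0034 over all genes. All 24 h arrays were on one side of all vehicle arrays for 14 of the 36 members and for 23% of all genes. At 6 h this held for 9 members and 20.8% of all genes. Both comparisons share the vehicle arrays.

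Set directly against 6 h, 10 members were higher at 24 h, 2 were lower and 24 passed in neither direction, against 13.8% of all genes called (9.23% higher and 4.57% lower). The 10 were HAL, ASS1, GNMT, BCAT1, GLUL, CPS1, OAT, AMT, GSTZ1 and AHCY, and the 2 were HGD and ARG2. Fitted alone, 3407 of the 9887 genes above the median signal were called, and 26 members lie above it. The median change was 0.10 over the members and -0.0097 over all genes, and the arrays lay apart for 19 members and for 33% of all genes. The count of members higher was 5 without replicate 2 of the 6 h group, where the count over all genes was 989. The count lower was 0 without replicate 1 of the 6 h group or replicate 1 of the 24 h group, and 1 without replicate 2 of the 6 h group or replicate 3 of the 24 h group. In those fits the count lower over all genes was 499 to 694. Among all genes 1826 were higher and 903 lower, against 2175 and 653 with arrays centred on their medians and 1457 and 1207 with quantile normalization. In all, 13 members were called in at least 1 of the 3 comparisons and 23 in none.

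**Figure D1:**
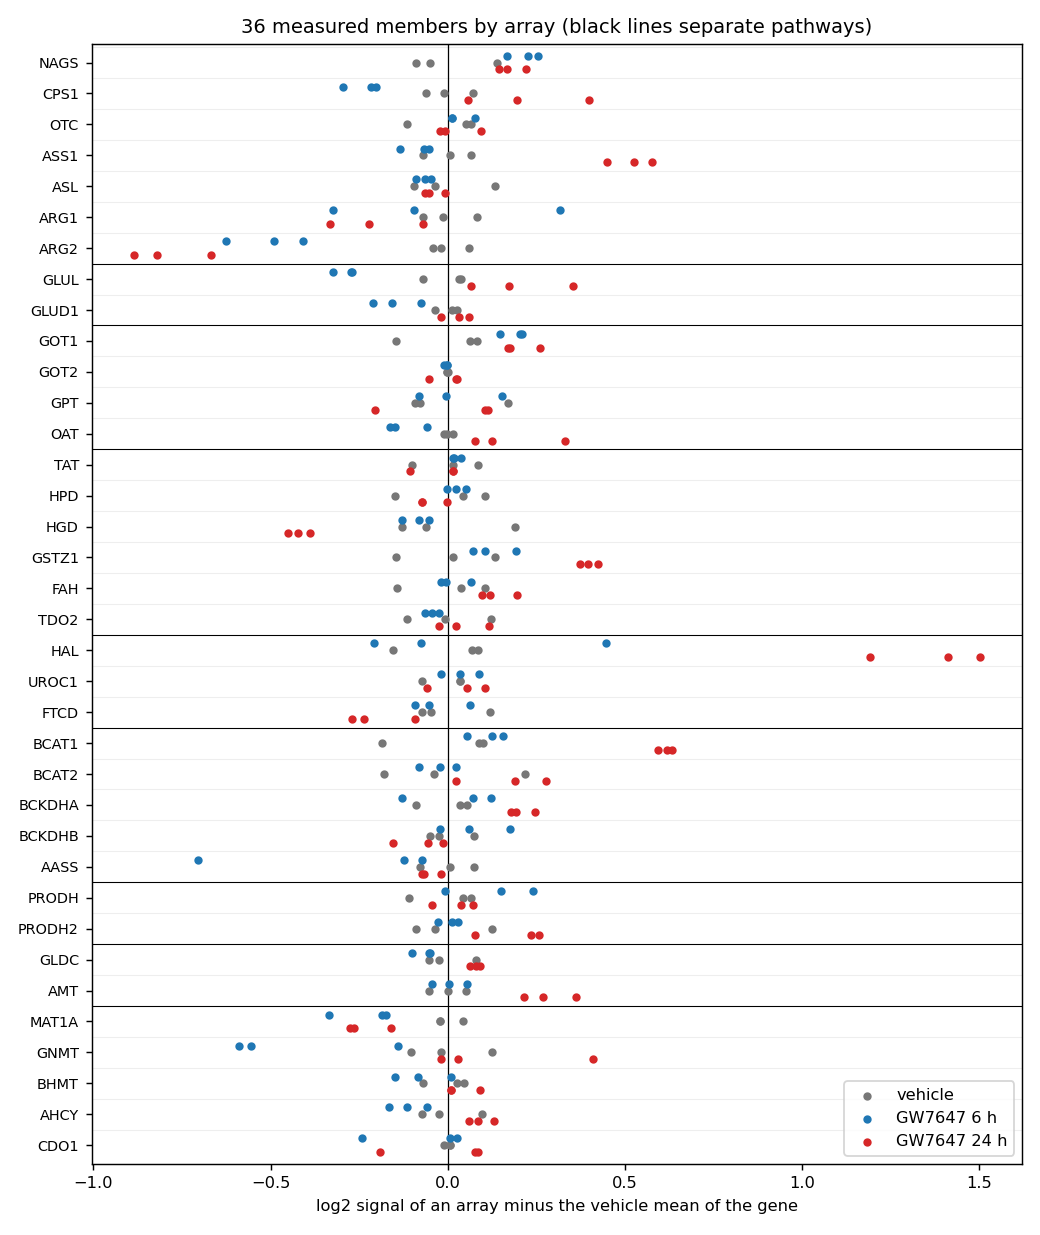
Log2 signal of each of the 9 arrays minus the vehicle mean of the same gene (x axis) for the 36 measured members, grouped by pathway (y axis), with 1 point per array coloured by group. Most members lie within a narrow band around 0, HAL stands far to the right at 24 h with a change of 1.37, and ARG2 stands to the left at both times with changes of -0.51 and -0.79.

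In the urea cycle 1 of 7 members was called at 6 h, where 3.54% of all genes were, and 2 at 24 h, where 8.17% were. The 2 called at 24 h moved in opposite directions. ARG2 encodes arginase 2, the mitochondrial arginase, which splits arginine into ornithine and urea and is best known outside the liver's urea cycle. It was the only member called in every comparison. Its log2 signal was 8.98, 9.01 and 9.08 in the vehicle arrays, 8.61, 8.53 and 8.40 at 6 h, and 8.20, 8.35 and 8.14 at 24 h. The 3 groups did not overlap, and each 24 h array lay below each 6 h array. The fall was 0.51 at 6 h (-0.51 ± 0.07 SE, n = 3 against 3, limma adjusted p = 0.00407), a signal 1.42-fold lower. At 24 h the change was -0.79 ± 0.07 (adjusted p = 1.10e-04), a signal 1.73-fold lower with a 95% interval of 1.55 to 1.94. From 6 h to 24 h the change was -0.28 ± 0.07 (adjusted p = 0.0274), a call lost without replicate 1 or 2 of the 6 h group or replicate 1 or 3 of the 24 h group (adjusted p-values up to 0.113). A second probe set of ARG2, without shared probes, gave -0.22 at 6 h and -0.41 at 24 h. With shared-probe sets left out the 6 h call was lost (adjusted p = 0.137), as was that of 24 h against 6 h (adjusted p = 0.112), and the 24 h call against vehicle was kept. The call of 24 h against 6 h was also lost with median centring (adjusted p = 0.0593).

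ASS1, argininosuccinate synthase, joins citrulline and aspartate and is often the limiting step of arginine synthesis. Its signal was 10.07, 10.21 and 10.15 in vehicle, 10.01, 10.09 and 10.08 at 6 h, and 10.67, 10.72 and 10.59 at 24 h. The 24 h arrays were all above the other 6, and the 6 h arrays overlapped vehicle. ASS1 rose by 0.52 ± 0.06 at 24 h (adjusted p = 4.85e-04), a 1.43-fold higher signal with a 95% interval of 1.31 to 1.57. Against 6 h the rise was 0.60 ± 0.06 (adjusted p = 1.11e-04).

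CPS1, carbamoyl phosphate synthetase 1, opens the cycle in the mitochondrion. Its signal was 8.40, 8.35 and 8.49 in vehicle, 8.12, 8.21 and 8.20 at 6 h, and 8.47, 8.81 and 8.61 at 24 h. The 6 h arrays were all below the vehicle arrays, and the 24 h arrays overlapped vehicle. On this probe set neither comparison with vehicle passed, with changes of -0.24 (adjusted p = 0.161) and 0.22 (adjusted p = 0.143). The second probe set of CPS1 had -0.16 at 6 h and passed at 24 h with 0.27 (limma adjusted p = 0.0411 over all probe sets). The 24 h arrays were higher than the 6 h arrays by 0.46 ± 0.08 (adjusted p = 0.00374), and the second probe set gave 0.42 in the same comparison.

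The other 4 urea cycle members were called in none of the 3 comparisons. NAGS, which makes the N-acetylglutamate that CPS1 needs, had values of 0.22 at 6 h (adjusted p = 0.122) and 0.18 at 24 h (adjusted p = 0.145). All its exposed arrays lay above the vehicle arrays, the lowest at 24 h, 8.1296, just over the highest of vehicle, 8.1253. ASL, which releases arginine and fumarate, had changes of -0.07 and -0.04. OTC, ornithine transcarbamylase, stayed near 3.75 in all groups, and ARG1, the cytosolic liver arginase, had a mean of 5.28.

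**Figure D2:**
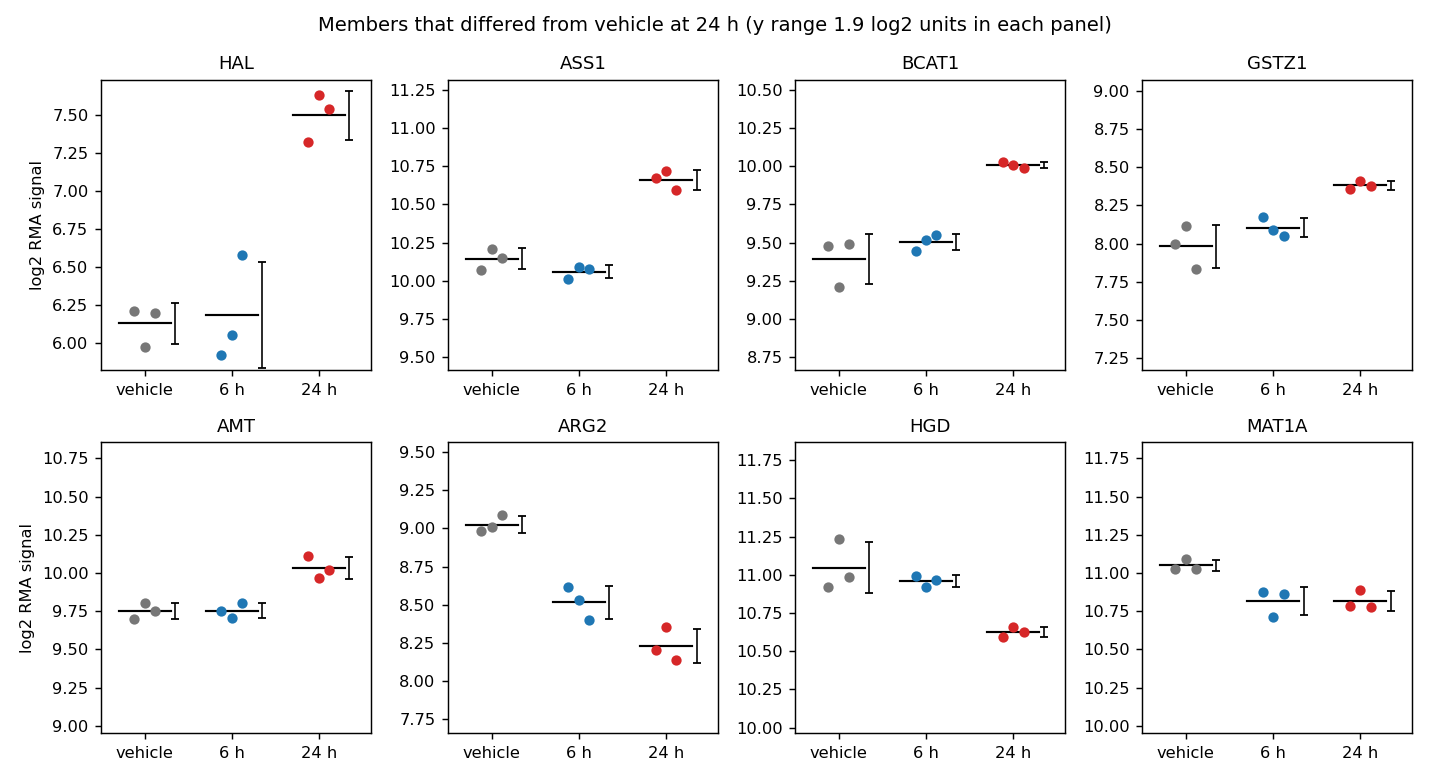
Log2 RMA signal (y axis, the same span in each panel) by group (x axis) for the 8 members called against vehicle at 24 h, with 1 point per array, a line at the group mean and a bar of ± 1 SD (n = 3). HAL, ASS1, BCAT1, GSTZ1 and AMT have all 24 h points above the vehicle points, ARG2, HGD and MAT1A have them below, and MAT1A is at 10.82 at both 6 h and 24 h.

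The members that handle glutamine and glutamate, GLUL and GLUD1, passed in neither comparison with vehicle on the probe sets used. GLUL is glutamine synthetase, which fixes ammonia on glutamate. Its signal was 10.88, 10.77 and 10.87 in vehicle, 10.57, 10.52 and 10.57 at 6 h, and 10.90, 11.19 and 11.01 at 24 h. The groups did not overlap, with 6 h lowest and 24 h highest. Its change was -0.29 ± 0.07 at 6 h (adjusted p = 0.0582) and 0.20 ± 0.07 at 24 h (adjusted p = 0.139). Another probe set of GLUL passed at 6 h with -0.39 (limma adjusted p = 0.0298 over all probe sets). From 6 h to 24 h it rose by 0.49 ± 0.07 (adjusted p = 0.00134), and 3 of its 4 probe sets gave 0.41 to 0.55. All 3 carry shared probes, and the fourth gave 0.0098 (adjusted p = 0.949 in the fit without shared probes). GLUD1, which releases ammonia from glutamate, had values of -0.15 and 0.03 against vehicle.

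Of 4 measured transaminases for aspartate, alanine and ornithine, none was called against vehicle by limma, with 1 higher at an unadjusted p under 0.05 at 6 h and 2 at 24 h. OAT, which converts ornithine toward glutamate and proline, had signals of 10.86, 10.86 and 10.88 in vehicle, 10.81, 10.70 and 10.72 at 6 h, and 10.94, 11.20 and 10.99 at 24 h. The 3 groups did not overlap, with 6 h lowest. OAT rose by 0.30 ± 0.07 from 6 h to 24 h (adjusted p = 0.0152), with 0.18 at 24 h against vehicle not passing (adjusted p = 0.164). The call was lost without replicate 2 (adjusted p = 0.0677) or 3 (adjusted p = 0.0570) of the 6 h group. GOT1, the cytosolic aspartate transaminase, had all its arrays above vehicle at both times, with values of 0.19 (adjusted p = 0.191) and 0.20 (adjusted p = 0.103). GOT2, its mitochondrial counterpart, had changes of -0.004 and -0.001, with 95% intervals of -0.11 to 0.11 each. GPT, an alanine transaminase, had changes of 0.02 and 0.005.

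In tyrosine and tryptophan breakdown, the enzymes of 2 consecutive steps moved in opposite directions at 24 h. HGD, homogentisate dioxygenase, opens the aromatic ring, and GSTZ1, maleylacetoacetate isomerase, acts on its product. HGD had signals of 10.92, 11.24 and 10.98 in vehicle, 10.99, 10.92 and 10.96 at 6 h, and 10.59, 10.66 and 10.62 at 24 h. All 24 h arrays lay below the other 6, which overlapped. The change of HGD at 24 h was -0.42 ± 0.08 (adjusted p = 0.00696), a 1.34-fold lower signal. A second probe set gave -0.40, and the other 2, which are dimmer, gave -0.19 and -0.05. Against 6 h the change was -0.33 ± 0.08 (adjusted p = 0.0152), and the probe sets did not agree there, since the dimmest gave 0.21. That call was lost without replicate 1 of the 6 h group (adjusted p = 0.0609) or replicate 1 of the 24 h group (adjusted p = 0.0513), and with the mean of all probe sets (adjusted p = 0.0835).

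GSTZ1 had signals of 8.00, 8.12 and 7.84 in vehicle, 8.17, 8.09 and 8.05 at 6 h, and 8.35, 8.41 and 8.38 at 24 h. All 24 h values were above the rest, and 6 h overlapped vehicle. It rose by 0.40 ± 0.07 at 24 h (adjusted p = 0.00641), a 1.32-fold higher signal, and by 0.28 ± 0.07 against 6 h (adjusted p = 0.0267). The call against 6 h was lost without replicate 2 or 3 of the 6 h group or any 1 of the 24 h arrays (adjusted p-values up to 0.0972), and with quantile normalization (adjusted p = 0.0728). The other 4 members of this group were called in no comparison on the probe sets used. HPD, which makes homogentisate, had changes of 0.02 and -0.05, and FAH, the last step, had changes of 0.01 and 0.14. A second, dimmer probe set of FAH passed at 6 h with 0.39 (limma adjusted p = 0.0488 over all probe sets) and did not pass at 24 h, at 0.20. TAT, which starts tyrosine breakdown, and TDO2 had mean signals of 6.07 and 3.67.

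Histidine breakdown held the largest rise of any member. HAL, histidine ammonia-lyase, takes the ammonia from histidine to give urocanate. Its signal was 6.21, 5.98 and 6.20 in vehicle, 5.92, 6.06 and 6.58 at 6 h, and 7.32, 7.63 and 7.54 at 24 h. The 24 h arrays stood above all others, and replicate 3 at 6 h stood above its group and above vehicle. HAL rose by 1.37 ± 0.15 at 24 h (adjusted p = 3.28e-04), a 2.58-fold higher signal with a 95% interval of 2.06 to 3.24, and by 1.31 ± 0.15 against 6 h (adjusted p = 2.62e-04). At 6 h its value was 0.05 ± 0.15 (adjusted p = 0.901). The rise rests on 1 of 3 probe sets, since the others gave 0.19 and -0.18 at 24 h, and the mean of the 3 gave 0.46.

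The later steps did not all follow. UROC1, urocanate hydratase, had 0.03 at 24 h from a mean signal of 4.23. FTCD, which passes the formimino group to folate, had signals of 9.10, 9.27 and 9.08 in vehicle and 8.88, 8.91 and 9.06 at 24 h. That was a value of -0.20 (adjusted p = 0.136). All 6 of its probe sets had negative values at 24 h, from -0.31 to -0.08, and none passed. All but the dimmest end in _x_at, so they may share probes and are not separate readings. AMDHD1, imidazolonepropionase, acts between UROC1 and FTCD and belongs to the wider list of breakdown genes described further on. Its signal was 5.97, 5.93 and 6.11 in vehicle, 6.23, 6.13 and 6.16 at 6 h, and 6.84, 6.76 and 6.75 at 24 h. No groups overlapped, and AMDHD1 rose by 0.78 ± 0.06 at 24 h (adjusted p = 3.14e-05), with 0.17 at 6 h (adjusted p = 0.191). HAL and AMDHD1 lie side by side on chromosome 12 with starts on opposite strands. The genes on either flank of the pair, CCDC38 and LTA4H, had values of -0.12 (adjusted p = 0.376) and 0.16 (adjusted p = 0.101) at 24 h.

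**Figure D3:**
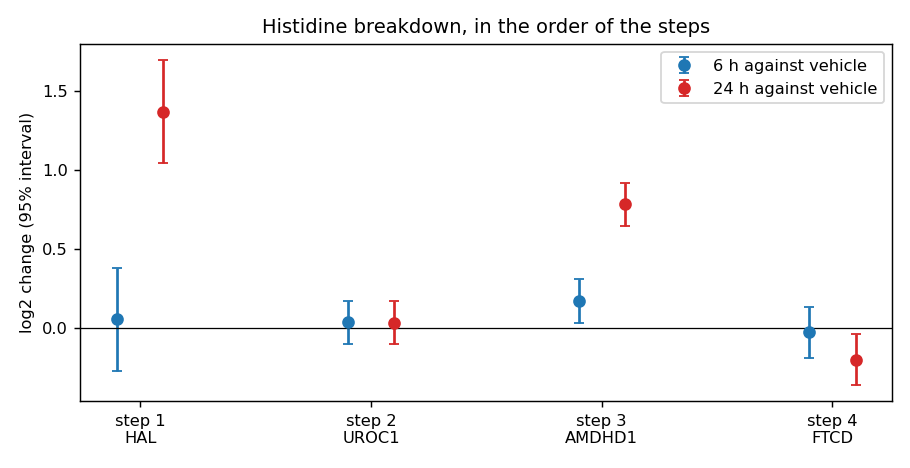
Log2 change against vehicle with its 95% interval (y axis) at 6 h and 24 h for the 4 enzymes of histidine breakdown in the order in which they act (x axis). HAL at 1.37 and AMDHD1 at 0.78 rose at 24 h, while UROC1 at 0.03 and FTCD at -0.20 were not called.

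Among 5 members for branched-chain amino acids and lysine, only BCAT1 was called. BCAT1 is the cytosolic branched-chain transaminase, low in normal adult liver and common in tumour cells. Its signal was 9.48, 9.21 and 9.49 in vehicle, 9.45, 9.52 and 9.55 at 6 h, and 10.02, 10.01 and 9.99 at 24 h. At 24 h the arrays lay close together above all the others. BCAT1 rose by 0.61 ± 0.08 at 24 h (adjusted p = 7.43e-04), a 1.53-fold higher signal with a 95% interval of 1.36 to 1.72, and by 0.50 ± 0.08 against 6 h (adjusted p = 0.00136). All 4 of its probe sets rose at 24 h, by 0.58 to 1.06. The mitochondrial BCAT2 had 0.16 (adjusted p = 0.378). Of the subunits of the dehydrogenase that commits the carbon skeletons, BCKDHA had 0.21 (adjusted p = 0.120) with arrays apart from vehicle, and BCKDHB had -0.07. AASS, which starts lysine breakdown, had a value of -0.30 at 6 h that came largely from replicate 2, at 3.87 against 4.46 and 4.51 in the other arrays.

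The glycine cleavage members were GLDC, its decarboxylase, and AMT, its aminomethyltransferase. AMT had signals of 9.70, 9.80 and 9.75 in vehicle, 9.75, 9.70 and 9.80 at 6 h, and 10.11, 9.97 and 10.02 at 24 h. Vehicle and 6 h overlapped fully, and the 24 h arrays were above both. AMT rose by 0.28 ± 0.06 against vehicle (adjusted p = 0.0145) and by 0.28 ± 0.06 against 6 h (adjusted p = 0.00992). The first call was lost without replicate 1 of vehicle (adjusted p = 0.0527) or replicate 1 of the 24 h group (adjusted p = 0.0581), and the second without replicate 2 of the 6 h group (adjusted p = 0.0513). GLDC had 0.08 at 24 h. The proline dehydrogenase PRODH and the hydroxyproline dehydrogenase PRODH2 were called in none of the comparisons, with 0.02 and 0.19 at 24 h.

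All 5 members of methionine and cysteine metabolism had negative values at 6 h, and 0 of them passed in limma, with 2 lower at an unadjusted p under 0.05. MAT1A makes S-adenosylmethionine in liver. Its signal was 11.03, 11.09 and 11.03 in vehicle, 10.88, 10.71 and 10.87 at 6 h, and 10.79, 10.89 and 10.78 at 24 h. Both exposed groups lay below vehicle and overlapped each other. The change was -0.23 ± 0.06 at both times, with an adjusted p of 0.0740 at 6 h and 0.0449 at 24 h. The call at 24 h was lost when any of 8 of the 9 arrays was left out, all but replicate 2 of the 6 h group, with changes of -0.27 to -0.21 and adjusted p-values up to 0.131. It was also lost with only the compared groups (adjusted p = 0.0753), median centring (adjusted p = 0.0769) or array weights (adjusted p = 0.0578).

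GNMT, which spends S-adenosylmethionine on glycine, had signals of 6.51, 6.36 and 6.28 in vehicle, 5.79, 5.83 and 6.24 at 6 h, and 6.36, 6.41 and 6.79 at 24 h. The 6 h arrays were all below the others, and 24 h overlapped vehicle. Its value at 6 h was -0.43 ± 0.13 (adjusted p = 0.127), and it rose by 0.57 ± 0.13 from 6 h to 24 h (adjusted p = 0.0167). That call was lost without replicate 1 of the 6 h group (adjusted p = 0.0724), its replicate 2 (adjusted p = 0.0801) or replicate 3 of the 24 h group (adjusted p = 0.0584).

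AHCY clears the S-adenosylhomocysteine that methylation leaves. Its signal was 12.01, 12.18 and 12.06 in vehicle, 11.97, 11.92 and 12.03 at 6 h, and 12.17, 12.22 and 12.14 at 24 h. The 24 h arrays were above the 6 h arrays, and both overlapped vehicle. AHCY rose by 0.21 ± 0.06 from 6 h to 24 h (adjusted p = 0.0457), a call lost without any 1 of 7 arrays, all but replicates 1 and 2 of vehicle, with adjusted p-values up to 0.166, and with quantile normalization (adjusted p = 0.0982). BHMT, which remethylates homocysteine with betaine, and CDO1, which oxidises cysteine, had values of 0.04 and -0.01 at 24 h.

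**Figure D4:**
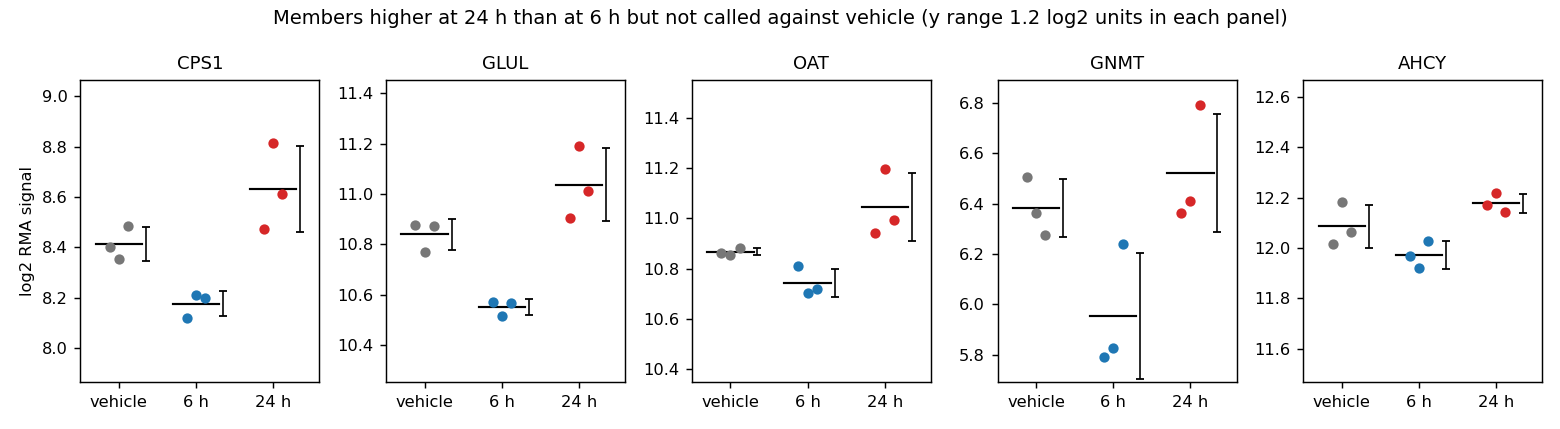
Log2 RMA signal (y axis, the same span in each panel) by group (x axis) for the 5 members called between 24 h and 6 h but not against vehicle, with 1 point per array, a line at the mean and a bar of ± 1 SD (n = 3). In CPS1, GLUL, OAT, GNMT and AHCY the 6 h mean is the lowest of the 3 groups and the 24 h mean the highest.

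Where 2 isozymes of a reaction were both measured, their changes were set against each other within each array, since their levels cannot be compared between probes. This was possible for 4 of 6 listed pairs, giving 8 comparisons that share the vehicle arrays. How often other gene pairs had arrays apart was not computed. An exact two-sided permutation test of 3 arrays against 3 cannot go below p = 0.1, and after adjustment over the 8 no comparison went below 0.16. ARG2 changed more negatively than ARG1 by 0.47 ± 0.25 (SE) at 6 h and by 0.58 ± 0.08 at 24 h, with arrays apart both times (exact permutation p = 0.1 each). ARG1 lay below the median signal, at a mean of 5.28. Its 4 probe sets gave -0.14 to 0.20 at 6 h and -0.21 to -0.04 at 24 h. The second probe set of ARG2 gave -0.22 and -0.41. GOT2 minus GOT1 was -0.19 ± 0.08 and -0.20 ± 0.08, also apart (exact permutation p = 0.1 each). BCAT2 minus BCAT1 was -0.14 ± 0.21 at 6 h (exact permutation p = 0.9) and -0.45 ± 0.22 at 24 h (exact permutation p = 0.1). PRODH2 minus PRODH was -0.12 ± 0.11 and 0.17 ± 0.10 (exact permutation p = 0.3 each).

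**Figure D5:**
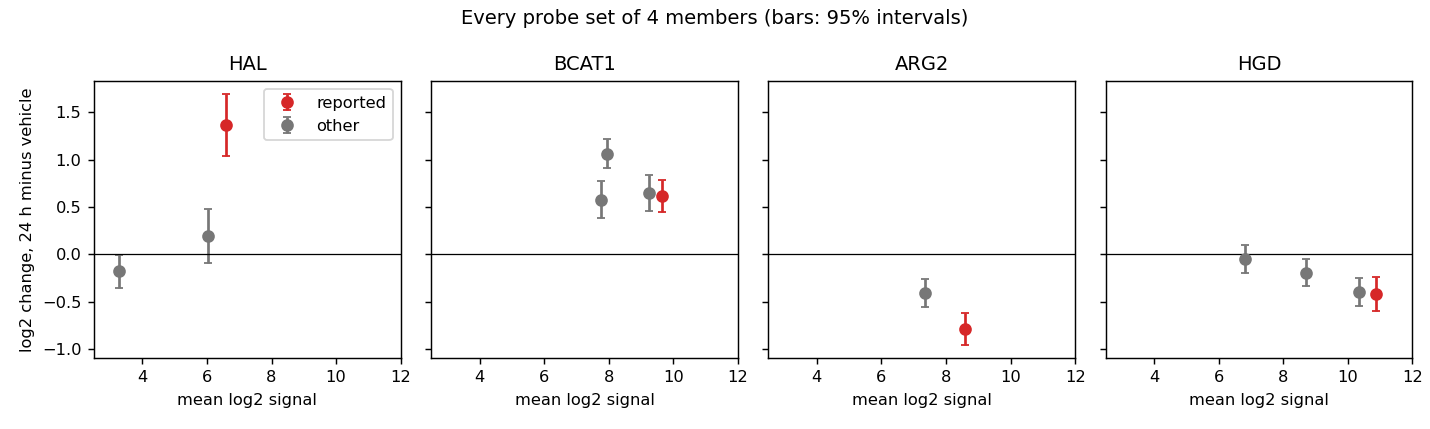
Log2 change at 24 h against vehicle with its 95% interval (y axis) against the mean log2 signal over the 9 arrays (x axis) for every probe set of HAL, BCAT1, ARG2 and HGD, with the probe set used in red and the others in grey. All probe sets of BCAT1 (0.58 to 1.06) and ARG2 (-0.79 to -0.41) lie on one side of 0, while those of HAL run from -0.18 to 1.37.

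A wider list of 54 other amino acid breakdown genes was used to set the members in their pathways, and 50 of them were measured. This list too was chosen with earlier results of these data known. At 6 h, 0 were called higher and 4 lower, namely PPM1K, ACADSB, CBS and MCEE. At 24 h 13 were higher and 3 lower, and from 6 h to 24 h 16 were higher and 2 lower. Over all genes 3.54%, 8.17% and 13.8% were called in these comparisons. Of the 50 genes 41 lay above the median signal, and of all 9887 genes above it, fitted alone, 1206, 2343 and 3407 were called. The median change at 24 h was 0.09, and 0.0034 over all genes. The 6 h count of 4 was 1 without replicate 3 of vehicle or any 1 of the 6 h arrays, and 2 without replicate 1 or 3 of the 24 h group. Over all genes the count lower at 6 h was 377, and 111 to 221 in the fits that gave 1. The 24 h count of 13 was 8 without replicate 3 of vehicle, where the count higher over all genes was 793, against 1063. The count of 2 lower from 6 h to 24 h was 0 without replicate 1 or 2 of either group and 1 without replicate 3 of the 6 h group.

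The largest called changes of this list at 24 h included 2 genes next to the methionine members. CTH, cystathionine gamma-lyase, which releases cysteine, had signals of 6.04, 6.17 and 6.16 in vehicle, 6.52, 6.35 and 6.56 at 6 h, and 8.17, 8.37 and 8.06 at 24 h. All groups were apart, and CTH rose by 2.08 ± 0.09 at 24 h (adjusted p = 2.59e-07), a 4.21-fold higher signal, with 0.35 at 6 h not passing. CBS, cystathionine beta-synthase, the step before CTH, fell by 0.28 ± 0.06 at 6 h (-0.28, adjusted p = 0.0187) and rose by 0.52 ± 0.06 at 24 h (adjusted p = 3.23e-04). The 6 h call of CBS was lost without replicate 3 of vehicle or any 1 of the 6 h arrays (adjusted p-values up to 0.0806), and with the mean of all probe sets (adjusted p = 0.0787).

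PPM1K, the phosphatase that activates the branched-chain dehydrogenase, fell at both times, with changes of -0.57 ± 0.06 (adjusted p = 8.54e-04) and -0.48 ± 0.06 (adjusted p = 0.00114). It has 5 probe sets, of which the next brightest gave -0.56 at 6 h and -0.34 at 24 h and the 3 dimmest gave -0.07 to 0.01 at 24 h, and the mean of the 5 gave -0.19. ACADSB, which acts on the isoleucine skeleton, had -0.29 (adjusted p = 0.0486), and MCEE, an epimerase on the way from propionyl-CoA to succinyl-CoA, had -0.25 (adjusted p = 0.0362) at 6 h. Without 1 array the call was lost in 8 of 9 fits for ACADSB, all but that without replicate 2 of vehicle, with adjusted p-values up to 0.199, and in 7 of 9 for MCEE, with adjusted p-values up to 0.130. Both calls were also lost with only the compared groups or no shared probes, and that of ACADSB with quantile normalization (adjusted p-values of 0.0505 to 0.102). At 24 h ACADSB was again called lower than vehicle, at -0.34 (limma adjusted p = 0.0135). MCEE was called higher than vehicle at 24 h, at 0.23 (limma adjusted p = 0.0312).

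For the series as a whole, array medians lay between 5.61 and 5.68, and arrays of one group correlated with one another at 0.997 to 0.999 over all genes, against 0.995 to 0.998 between groups. The hepatocyte markers stood high, with ALB at 14.77 and AFP at 14.06, and 2 of 8 measured markers fell at 24 h, FGB by 0.67 and TTR by 0.55. Of 17 markers of leukocytes, endothelium, stellate cells and bile duct, 13 were dimmer than the median gene, and their mean level was 5.60 to 5.65 in vehicle, 5.64 to 5.68 at 6 h and 5.57 to 5.69 at 24 h. CD14 was the only one called, at -0.29 at 6 h and 0.28 from 6 h to 24 h. The signal of the 3′ GAPDH control minus its 5′ control was 0.018 to 0.022 at 24 h. At 6 h it was higher, at 0.045 to 0.070. The vehicle range of -0.008 to 0.076 held both, and the actin controls overlapped. The part of these in the members' changes was not tested.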

How the data were processed

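Total RNA from HepG2 cells was hybridised to 9 Affymetrix arrays in 3 groups of 3. The deposited values are log2 probe set signals made by the authors with RMA, per the submitters' processing notes; no software or version is given in the sources used here. The deposited file holds 54675 probe sets, of which 62 are array controls. Genes were named from GEO's platform annotation through probe sets with 1 gene symbol, and the probe set with the highest mean was kept for each of 19775 genes. Groups were compared with limma 3.58.1 in R 4.3.3 (lmFit and eBayes over all 9 arrays, 3 contrasts, two-sided, Benjamini-Hochberg adjustment over all genes, called at an adjusted p under 0.05), and the code was tested on simulated data. Intervals are 95%. The number of arrays limits the precision.

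Every member is accounted for. Members called in any comparison on the probe set used are given by array, the others by counts, ranges or their change. UROC1, AASS and other dim members were named with a change outside the rule for brighter members, after their values were seen. Of the other breakdown genes the 4 largest called changes against vehicle were named. Members and lists were chosen with earlier results of these data known. Alternatives changed the normalization, the probe set rule, shared probes, the signal filter, the variance prior, the arrays in the fit, array weights and the replicate block. No pairing of arrays by replicate number was seen in the values, and the labels do not say whether there was one.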

Additional observations from a re-analysis of the deposited data

Results flagged for a closer look

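In 12 members the effect differed between the exposure times, by the limma test of 24 h against 6 h. In that test 13.8% of all genes were called, and 3407 of the 9887 above the median signal when fitted alone. HAL was 1.31 higher at 24 h on the log2 scale, ASS1 0.60, GNMT 0.57, BCAT1 0.50, GLUL 0.49, CPS1 0.46, OAT 0.30, AMT 0.28, GSTZ1 0.28 and AHCY 0.21. HGD had a difference of -0.33 and ARG2 of -0.28. CPS1, GLUL, OAT, GNMT and AHCY were called in neither comparison with vehicle, and their 6 h means were below vehicle and their 24 h means above it. The calls of AHCY, AMT, ARG2, GNMT, GSTZ1, HGD and OAT, 7 of the 12, were lost in at least 1 of the 9 fits that left out an array. The sizes of these differences do not involve the vehicle arrays, but the spread used to test them does. The 24 h and 6 h groups differ in time in culture as well as in exposure, and the 2 cannot be told apart.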

How the results depend on the processing

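No called member changed direction in any alternative run for it, nor in the 9 fits that each left out 1 array. Filters removed 5 of them from 1 alternative each, HAL and GNMT from that above the median signal and ASS1, MAT1A and AHCY from that with no shared probes. Of 21 member calls, 12 were kept in all 9 of those fits. The count of members higher at 24 h against vehicle was 4 to 7, and the count lower 2 to 3. Over all genes fitted, which numbered 9887 to 19775, the count higher was 612 to 1485 and the count lower 293 to 858. The count of members higher at 6 h was 1 with genes above the median signal or with array weights, and 0 to 1 with 1 array left out. Lower at 6 h, it was 2 with only the compared groups, 4 with an intensity trend and robust prior, 3 with genes above the median signal, 2 with the mean of all probe sets, 0 with no shared probes, 2 with array weights, and 1 to 2 with 1 array left out. Over all genes the count lower at 6 h was 377 as first fitted, 632 with the trend and prior, and 706 of 9887 above the median signal. From 6 h to 24 h, the count of members higher was 5 to 10 and the count lower 0 to 2 with 1 array left out. Over all genes those fits called 989 to 2061 higher and 499 to 1021 lower. The count of members lower was 1 with the mean of all probe sets, with no shared probes and with median centring. The cause was not tested. Isozyme comparisons with arrays apart numbered 4 to 6 of 8, with no share for other gene pairs to set beside this. No pairing by replicate number was seen: deviations of arrays with the same number correlated at -0.20 to 0.09 and others at -0.24 to 0.25. With 3 arrays per group this cannot show that cultures were unmatched. With the replicate block, 5 members were higher and 2 lower at 24 h, and 0 and 1 at 6 h. From 6 h to 24 h, 9 members were higher and 2 lower. Over all genes this fit called 816 higher and 400 lower at 24 h, and 208 and 219 at 6 h. From 6 h to 24 h it called 1470 higher and 727 lower. The calls of MAT1A at 24 h (adjusted p = 0.0922) and AHCY from 6 h to 24 h (adjusted p = 0.0850) were lost. At 6 h those of CBS (adjusted p = 0.0502), ACADSB (adjusted p = 0.0782) and MCEE (adjusted p = 0.0647) were lost too. Among all genes 427 were called at 6 h, against 701. Among other breakdown genes 1 was lower at 6 h, against 4. For the other breakdown genes at 6 h, the count lower was 2 with only the compared groups or no shared probes, 7 with the intensity trend and 8 above the median signal. The count higher at 24 h was 8 with only the compared groups, where 628 were higher over all genes. Members with low signal limit what could be measured.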
